A study of Rattus norvegicus with 12 samples.

Results

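The genes described here are 37 rat genes of red blood cell maturation and haem synthesis, chosen by symbol from a list that was drawn up with earlier results of these data known. They cover globins and the globin chaperone, the enzymes of haem synthesis, iron and mitochondrial carriers, proteins of the red cell membrane and its skeleton, transcription factors and other regulators, and cytosolic enzymes of red cells. All 37 symbols were found, in 38 rows of the 19230 in the expression table. Of these rows, 34 name 1 gene and 4 merge neighbouring or near-identical genes (Hba1 with Hba2, Hemgn with Trmo, Alad with Pole3, and Hnrnpa1 with Nfe2), so a merged row cannot be credited to 1 of its genes. Hemgn and Nfe2 also have a row of their own.

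RNA was sequenced from 4 sets of Sprague-Dawley samples, each with 3 libraries. Lung of wild-type (WT) rats came from normoxia at day 0 and from rats on SuHx at day 4, SuHx being Sugen (SU5416, an inhibitor of VEGF receptors) combined with hypoxia, a rat model of pulmonary arterial hypertension. Ahr-KO lung, labelled as lacking the aryl hydrocarbon receptor, came from SuHx at day 4, and endothelial cells (ECs) came from WT normoxia and carry a day 4 label, although their column names in the table give day 0. Groups on Sugen alone, on hypoxia alone or of Ahr-KO normoxia were not analysed here, so the agents cannot be told apart and neither can genotype differences present before SuHx. The labels do not say whether the 3 libraries of a group are 3 animals, and p-values then reflect only how far these libraries differ, which may be technical. Libraries are called by the suffix of their column, 0 to 2.

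Red blood cells arise in the marrow, and in adult rats also in the spleen, from precursors that respond to erythropoietin through its receptor Epor. The transcription factors Gata1, Tal1 and Klf1 switch on a shared programme in these precursors: globins, haem enzymes, the band 3 and spectrin membrane, and blood group proteins. Young red cells that have lost their nucleus, the reticulocytes, keep much of this mRNA for a time in the blood, so lung that holds blood carries it. Haem is made in a chain of enzymatic steps that starts and ends in the mitochondrion, and Alas2 is the erythroid form of the enzyme of the opening step. Several other enzymes of the pathway, and Tfrc, Car2, Epb41 and Tmod1, are made in many tissues besides red cells.

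Since GATA factors and Klf1 act on genes of the erythroid programme, the sequence upstream of the members' start sites was searched on both strands. The search was for AGATAA, a form of the GATA motif, and for the CACC box CCNCNCCC that Klf1-type factors recognise. Other forms of the GATA motif were not searched for. The sequences are RefSeq's on build GRCr8, another build than the rn6 that the submitters' processing notes name, and 27 of the 37 members matched by symbol. The start is the one given with these sequences. It equalled the RefSeq gene start for 19036 of 27457 promoters checked, and it need not be the start used in red cell precursors. Within 250 bases upstream of the start, AGATAA was present in 6 of 27 members (22.2%) and in 994 of 13991 genes of the table that have such a sequence (7.10%). The 6 were Alas2, Fech, Rhd, Sptb, Trim10 and Epor. The CACC box was present in 16 of 27 members (59.3%) and in 57.9% of all such genes, so its share was close to the background. Fech has AGATAA and was called higher in WT SuHx lung, but its sequence is not shown. The 150 bases upstream of the start are shown for 4 other members of which both hold. They are also shown for Hbb and Kel, which have no AGATAA in the window. Each runs 5′ to 3′ in the direction of its gene, and capitals mark a match to either motif on either strand.
Alas2, chrX:22895300-22895449 (+ strand): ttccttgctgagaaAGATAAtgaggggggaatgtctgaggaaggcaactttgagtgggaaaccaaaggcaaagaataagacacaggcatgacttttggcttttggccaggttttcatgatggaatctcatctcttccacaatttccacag
Rhd, chr5:152371050-152371199 (+ strand): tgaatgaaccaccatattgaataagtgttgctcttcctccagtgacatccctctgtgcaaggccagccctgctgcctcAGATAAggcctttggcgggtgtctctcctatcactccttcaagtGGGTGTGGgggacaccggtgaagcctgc
Sptb, chr6:101170279-101170428 (- strand): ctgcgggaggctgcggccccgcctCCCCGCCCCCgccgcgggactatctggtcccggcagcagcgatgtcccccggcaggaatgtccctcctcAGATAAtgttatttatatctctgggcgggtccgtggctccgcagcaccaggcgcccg
Trim10, chr20:1703470-1703619 (- strand): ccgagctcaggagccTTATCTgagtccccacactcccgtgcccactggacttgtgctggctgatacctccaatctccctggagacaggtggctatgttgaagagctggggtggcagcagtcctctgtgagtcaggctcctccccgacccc
Hbb, chr1:167663722-167663871 (- strand): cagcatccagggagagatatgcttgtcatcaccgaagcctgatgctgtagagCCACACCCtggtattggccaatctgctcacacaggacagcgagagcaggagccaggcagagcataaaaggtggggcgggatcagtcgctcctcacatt
Kel, chr4:71551774-71551923 (- strand): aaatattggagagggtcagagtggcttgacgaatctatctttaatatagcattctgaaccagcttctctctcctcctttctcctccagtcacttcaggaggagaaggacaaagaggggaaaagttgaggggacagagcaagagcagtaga

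In these sequences AGATAA begins at -136 of the start in Alas2, -72 in Rhd, -57 in Sptb and -135 in Trim10, where it reads TTATCT because it lies on the other strand. In Hbb a CACC box begins at -98. Neither AGATAA nor the CACC box was found in the Kel stretch, which says nothing of other forms of the GATA motif or of the factors themselves. Such matches describe the sequence and are not evidence of a bound site.

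The values are the authors' deposited scaled signal, an estimated read number divided by 1 factor per library. Summed over the table, a library's signal was 20567809 to 27052927, worth 20036833 to 28592738 reads, and 1 read was worth 0.745 to 1.25 units of signal. Ahr mRNA did not check the genotype label, since its signal was 1800.03 to 2523 in Ahr-KO lung and 1740 to 3073 in WT SuHx lung. Cyp1a1, the best known target of the receptor and no member of this list, was 3.87 to 5.32 in Ahr-KO lung against 65459 to 75071 in WT SuHx lung. The 10 markers of the heart summed to 843, 1634 and 12478 in the normoxia libraries, library 2 being the highest, to 2631 to 3494 in WT SuHx and to 5791, 7346 and 27137 in Ahr-KO SuHx, library 2 again being the highest. In 9 of the 10 all Ahr-KO libraries lay above all WT SuHx libraries, with a median log2 difference of 4.19, yet none of the 10 was called by limma in a lung comparison (0, 7 and 5 had an unadjusted p under 0.05 in WT SuHx against normoxia, Ahr-KO against WT SuHx and Ahr-KO SuHx against normoxia). In the ECs, 10 of 10 endothelial markers were called higher than in normoxia lung and 11 of 11 lung epithelial and fibroblast markers lower.

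Differences were tested with limma on log2(signal + 1) over all rows with a mean signal of at least 1. Calls need a p below 0.05 after Benjamini-Hochberg adjustment, and fold changes are on this scale, which understates changes of low rows. Of the 38 rows, 37 passed this filter in lung. The exception was Gata1, the master regulator of the lineage, whose signal was listed at 0 in all normoxia and EC libraries and was 1.53 in WT SuHx library 1, 1.55 in Ahr-KO library 0 and 1.52 in Ahr-KO library 2. Each of these values is worth 2 reads, and a difference was not detectable at this depth.

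The comparison of WT SuHx with WT normoxia lung asks how these genes stand after 4 days of the model. In WT SuHx lung, 20 of the 37 tested rows were called higher, 1, Tmod1, lower, and 16 were not called, against a background over all 15234 tested rows of 7.08% higher and 6.39% lower. The largest fold changes were those of Kel (26.5-fold), Slc4a1 (13.2-fold), Ahsp (12.8-fold), Rhag (9.90-fold) and Tspo2 (9.72-fold), all of them made in erythroid cells. Hbb was 4.34-fold and Alas2 5.06-fold higher, while 4 of the 7 haem enzyme rows were not called. The median log2 change of the tested members was 1.12, and over all tested rows it was -0.04. In bulk tissue, more cells of a type and more RNA per cell cannot be told apart.

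In 25 of the 37 rows all 3 WT SuHx libraries lay above all 3 normoxia libraries, and in 3 rows below, where the background was 17.0% and 19.7%. WT SuHx library 2 was the highest of its group in 28 of the 37 rows and WT SuHx library 0 the lowest in 25. Among the normoxia libraries, library 0 was the highest in 20 rows and library 1 the lowest in 23. The members therefore tended to be high or low together in a library, also within a group, and they are not independent measures of the group difference.

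**Figure D1:**
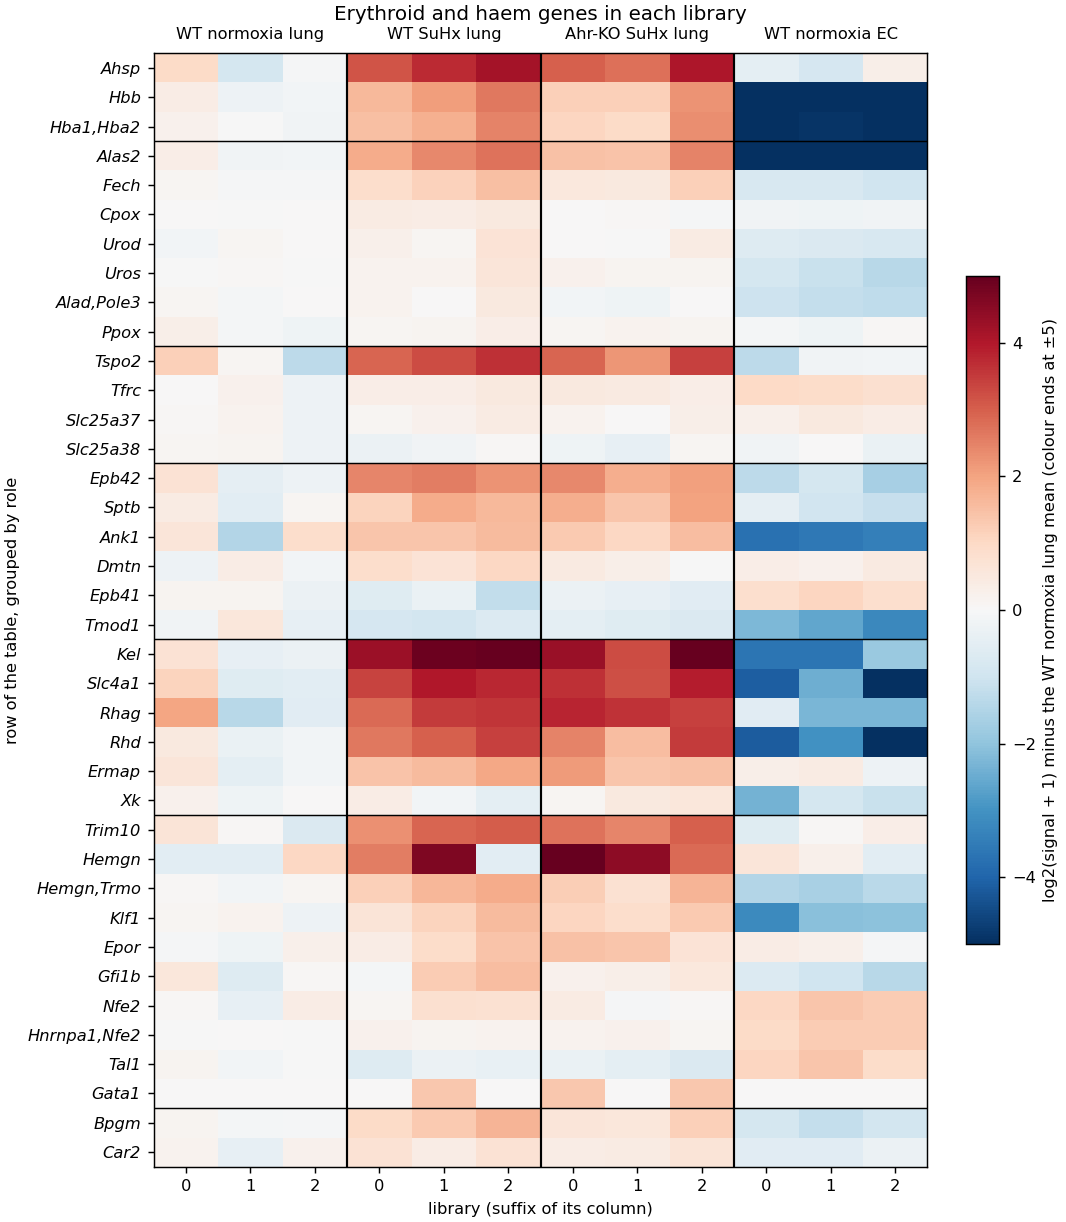
Each row is 1 row of the table, grouped by role, and each column 1 library; the colour gives log2(signal + 1) minus the mean of the WT normoxia lung libraries, with the scale ending at ±5. Globins, Kel, Rhd and band 3 (Slc4a1) are raised in the 6 SuHx libraries and low in the ECs, while Epb41 and Tal1 are higher in the ECs than in normoxia lung.

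The globin chains and the chaperone that holds free alpha-globin, Ahsp, were all called higher. Hbb, the beta-globin gene, had a signal of 42541, 27670.1 and 29844 in the normoxia libraries and of 101136, 139022 and 204024 in the WT SuHx libraries. The groups do not overlap, and WT SuHx library 2 stands above the other 2. The log2 fold change was 2.12 ± 0.37 (SE; limma adjusted p = 0.00681; n = 3 each). The merged Hba1 and Hba2 row, alpha-globin, was at 41720.4, 35849 and 32284 in normoxia and at 103081, 124905 and 203067 in WT SuHx, with a log2 fold change of 1.92 ± 0.39 (limma adjusted p = 0.014). The deposited rows do not separate Hba1 from Hba2, and reads may also be shared with other alpha-globin copies. Ahsp was at 109.8, 29.8 and 54.4 in normoxia and at 513, 757 and 1021 in WT SuHx, again with no overlap. Its log2 fold change was 3.68 ± 0.48 (limma adjusted p = 0.00178). Rows that name a globin gene took 0.280% to 0.392% of all signal in normoxia lung, 0.970% to 1.94% in WT SuHx lung and 0.700% to 1.65% in Ahr-KO SuHx lung.

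Of the haem synthesis enzymes, 3 of 7 rows were called higher and none lower. These 3 are the erythroid opening enzyme and 2 of the late mitochondrial steps. Alas2 was at 803, 561 and 579.8 in normoxia and at 2336, 3419.6 and 4254 in WT SuHx, a log2 fold change of 2.34 ± 0.30 (limma adjusted p = 0.00172). Fech, ferrochelatase, which puts the iron into the ring, was at 599.8, 535 and 537 in normoxia and at 1019, 1224 and 1571 in WT SuHx (2.25-fold, limma adjusted p = 0.00792). Cpox, coproporphyrinogen oxidase, differed little in size but with tight libraries: 632, 620.5 and 639.6 in normoxia against 849, 824 and 880.2 in WT SuHx (1.35-fold, limma adjusted p = 0.0125). The Cpox call was lost without WT SuHx library 0 (limma adjusted p = 0.0552). In all 3 rows every WT SuHx library exceeded every normoxia library. The enzymes between them were not called: the merged Alad and Pole3 row had a log2 fold change of 0.22, Uros of 0.31, Urod of 0.36 and Ppox of 0.20, with adjusted p values from limma of 0.278, 0.206, 0.178 and 0.334. All 7 estimates were above 0.

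Among the carriers of iron, glycine and mitochondrial substrates, 1 of 4 rows was called. Tspo2, an erythroid relative of the translocator protein TSPO, had a signal of 4.77, 1.70 and 0 in normoxia and of 18.0, 22.9 and 30.5 in WT SuHx. The normoxia values rest on a handful of reads, and the fold change of 9.72 (limma adjusted p = 0.00964) became 14.8 without normoxia library 0 and 6.15 without normoxia library 2. Tfrc, the transferrin receptor by which precursors take up iron, was at 1134, 1297 and 921 in normoxia and at 1375, 1383 and 1563 in WT SuHx. Its groups do not overlap, yet its log2 change of 0.38 was not called (limma adjusted p = 0.0762). It was called without normoxia library 1 (limma adjusted p = 0.0447) and under both other scalings, quantile normalization and equal table totals (0.0435 and 0.0365). The mitochondrial iron importer Slc25a37 (mitoferrin-1, log2 fold change 0.24) and the glycine carrier Slc25a38 (-0.14) were not called, and their groups overlap.

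The membrane skeleton split: of 6 rows, 3 were called higher and 1 lower. Epb42, protein 4.2, which ties band 3 to the skeleton, was at 49.3, 21.3 and 24.5 in normoxia and at 164, 178 and 143 in WT SuHx (5.29-fold, limma adjusted p = 0.00172). Sptb, erythroid beta-spectrin, was at 199.7, 105 and 162 in normoxia and at 323, 549.5 and 468 in WT SuHx (2.89-fold, limma adjusted p = 0.00838). Both show no overlap between the groups. Dmtn, the actin bundler dematin, was 1.81-fold higher (limma adjusted p = 0.0182), a call lost without normoxia library 0, WT SuHx library 0 or WT SuHx library 2 (limma adjusted p from 0.0642 to 0.0696). Ank1, the ankyrin of red cells, was at 357, 84.4 and 442 in normoxia and at 627, 629 and 709.7 in WT SuHx. Its log2 change of 1.46 was not called (limma adjusted p = 0.0828), normoxia library 1 being far below the other 2. Without that library Ank1 was called, with a fold of 1.64 (limma adjusted p = 0.0415), and so it was without normoxia library 2, with a fold of 3.75 (limma adjusted p = 0.0364).

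The 2 remaining skeleton genes had estimates below 0. Tmod1, tropomodulin, which caps actin filaments in red cells and in muscle, was at 788, 1337 and 671 in normoxia and at 491, 469 and 561 in WT SuHx, a log2 change of -0.82 ± 0.22 (limma adjusted p = 0.0398). That call was lost in 7 of the 9 fits that leave out 1 lung library. Epb41, protein 4.1, had a log2 change of -0.72 that missed the threshold (limma adjusted p = 0.0563), at 4625, 4656 and 3469 in normoxia against 2796, 3369.8 and 1775 in WT SuHx. It was called without normoxia library 2 (limma adjusted p = 0.0433) or without WT SuHx library 1 (limma adjusted p = 0.0257). Markers of the heart were high in normoxia library 2, where Tmod1 had its lowest normoxia value, and their part in these 2 rows was not tested.

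The membrane transport and blood group proteins held the largest differences, with 5 of 6 rows called higher. Kel, the Kell blood group peptidase, had a signal of 19.9, 8.52 and 9.20 in the normoxia libraries and of 247, 378 and 403 in WT SuHx. The lowest WT SuHx library is above the highest normoxia library by a wide margin, and the log2 fold change was 4.73 ± 0.47 (limma adjusted p = 0.000498). Slc4a1, band 3, the anion exchanger that anchors the membrane, was at 254, 75.0 and 80.5 in normoxia and at 1214, 1880.3 and 1576 in WT SuHx, a log2 fold change of 3.72 ± 0.42 (limma adjusted p = 0.000804). Rhd, the Rh blood group antigen, was at 51.7, 29.0 and 33.0 in normoxia and at 231, 296 and 399 in WT SuHx (8.01-fold, limma adjusted p = 0.00324). In each of these rows normoxia library 0 was the highest of its group, and the groups do not overlap.

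Rhag, the glycoprotein needed for Rh at the surface, was at 18.3, 0.852 and 2.30 in normoxia, the last 2 worth at most 3 reads, and at 34.1, 55.1 and 57.3 in WT SuHx. Its fold change of 9.90 (limma adjusted p = 0.0177) became 19.6 without normoxia library 0 and 6.09 without normoxia library 1, and the call was lost without WT SuHx library 2 (limma adjusted p = 0.0622). Ermap, the Scianna blood group protein, was 3.10-fold higher (limma adjusted p = 0.0132). Xk, which is linked to the Kell protein in the membrane and is also made in other tissues, was the exception. Its signal was 51.7, 38.4 and 45.2 in normoxia and 57.7, 40.5 and 31.3 in WT SuHx, with overlapping groups and a log2 change of -0.10 ± 0.28 (95% interval -0.72 to 0.53).

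The regulators gave 3 calls among 9 rows, all higher. Klf1, the erythroid Kruppel-like factor, was at 52.5, 56.3 and 41.4 in normoxia and at 78.5, 109 and 149.7 in WT SuHx, 2.17-fold higher (limma adjusted p = 0.0243). The Klf1 call was lost without normoxia library 0 (limma adjusted p = 0.0653), normoxia library 2 (0.053) or WT SuHx library 2 (0.0748), and with only the 2 groups compared in the fit (0.0501). Trim10, a tripartite motif protein of terminal erythroid cells, was at 9.55, 5.97 and 3.07 in normoxia and at 31.2, 49.7 and 53.6 in WT SuHx (6.68-fold, limma adjusted p = 0.00271). The merged Hemgn and Trmo row was 2.95-fold higher (limma adjusted p = 0.00478). The row of Hemgn (hemogen, a nuclear protein of blood cells) alone was erratic, with 7.46, 35.6 and a value near 0 in WT SuHx, and was not called, except without WT SuHx library 2 (limma adjusted p = 0.0439).

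Tal1, Gfi1b, Nfe2 and the receptor Epor were not called. Tal1, which also acts in endothelium, was at 1479.7, 1201 and 1324 in normoxia and at 841, 1096 and 1014 in WT SuHx. The groups do not overlap, but the log2 change of -0.44 missed the threshold (limma adjusted p = 0.0655, or 0.0471 without Ahr-KO library 2). Gfi1b, a repressor of red cell and platelet precursors, and Nfe2, a factor of both lineages, had log2 changes of 0.89 and 0.54 with overlapping groups. Epor was at 15.1, 13.6 and 19.2 in normoxia and at 20.8, 30.6 and 44.7 in WT SuHx. The Epor groups do not overlap, but the log2 change of 0.91 (95% interval 0.12 to 1.70) was not called, with a limma adjusted p of 0.112.

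Both cytosolic enzymes were called higher. Bpgm, which makes the bisphosphoglycerate that lowers the oxygen affinity of haemoglobin, was at 1017, 873 and 894 in normoxia and at 1779, 2280.2 and 3017 in WT SuHx (2.49-fold, limma adjusted p = 0.00475). Car2, carbonic anhydrase 2, also made in lung tissue, was 1.52-fold higher, close to the threshold (limma adjusted p = 0.0481), and lost its call in 6 of the 9 fits that leave out 1 lung library.

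**Figure D2:**
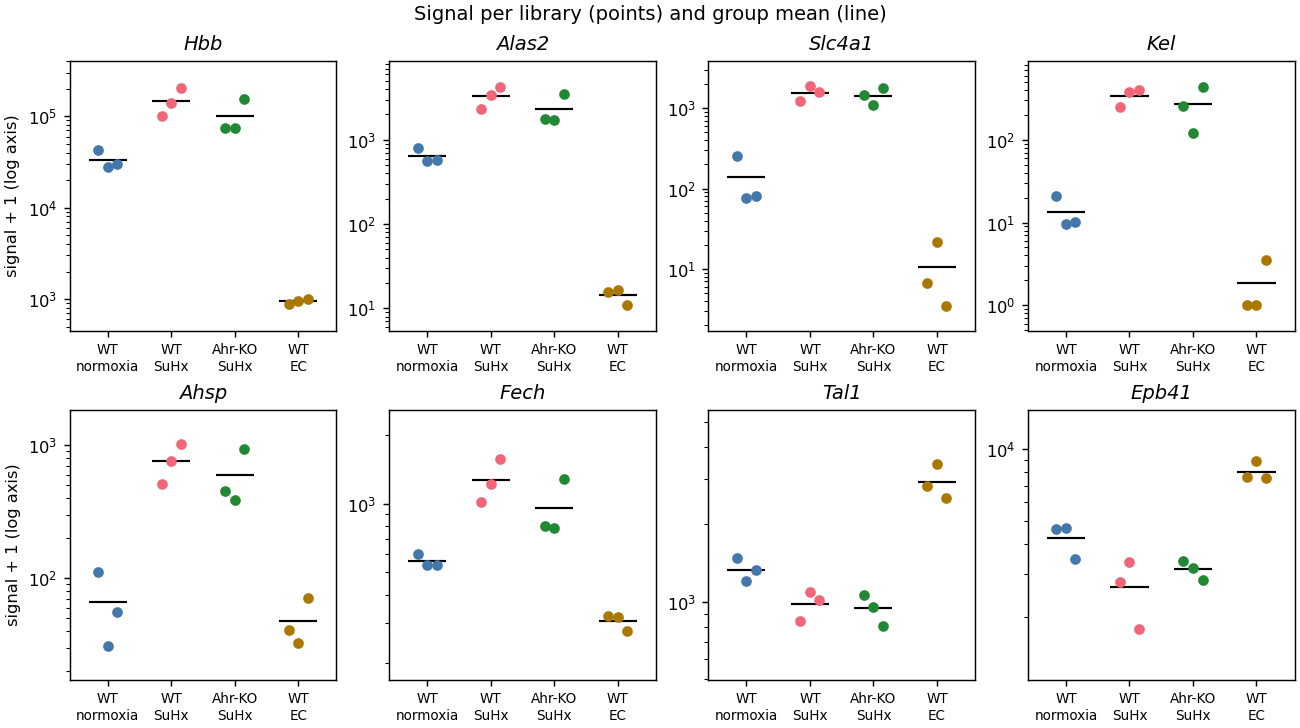
Signal plus 1 of single rows on a log axis, 1 point per library and a line at the mean of each group of 3. Kel and Slc4a1 show SuHx libraries far above normoxia and ECs near the bottom of the scale, while Ahsp in the ECs lies within the range of normoxia lung.

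The comparison of Ahr-KO SuHx with WT normoxia lung uses the same 3 normoxia libraries, so its values are given beside those above and are not an independent observation. Here 16 of the 37 rows were called higher and 0 lower, where the background over all rows was 5.95% higher and 3.80% lower (9.75% in either direction). The median log2 change was 0.78, against -0.03 over all tested rows. Kel was 18.9-fold higher, with 253, 121 and 439.9 in the Ahr-KO libraries (limma adjusted p = 0.000616). Rhag was 12.3-fold and Slc4a1 12.1-fold higher, Slc4a1 being at 1447, 1090.1 and 1768. Hbb was at 75246, 74243 and 153862, 2.90-fold above normoxia (limma adjusted p = 0.0308), and the merged Hba1 and Hba2 row 2.75-fold (limma adjusted p = 0.0472). Ahr-KO library 2 was the highest of its group in 22 of the 37 rows and library 1 the lowest in 22.

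The rows called in WT SuHx lung but not in Ahr-KO SuHx lung, each against the same normoxia libraries, were Fech, Cpox, Dmtn, Car2 and Tmod1. For Fech the log2 change was 0.74 (limma adjusted p = 0.0565) and for Car2 it was 0.47 (limma adjusted p = 0.125). Dmtn stood at 0.23, Tmod1 at -0.60 and Cpox at 0.00. A call in 1 comparison and not in the other does not show that they differ. The direct comparison of the SuHx groups bears on that.

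Leaving out normoxia library 2 and Ahr-KO library 2 together, the 2 in which markers of the heart were highest, gave 8 calls in place of 16. That fit also has fewer libraries, which lowers the number of calls in general, and the part of heart RNA was not tested. Single libraries also decided single calls. The fold of Rhag was 24.3 without normoxia library 0 and 7.53 without normoxia library 1, and its call was lost without Ahr-KO library 1 (limma adjusted p = 0.0502). The fold of Tspo2, 7.22 with all libraries, was 11 without normoxia library 0 and 4.56 without normoxia library 2. The Hbb call was lost on leaving out any 1 normoxia library, with adjusted p values from limma of 0.0531 to 0.0976, or without Ahr-KO library 1 or 2. Without Ahr-KO library 2, its fold was 2.28 (limma adjusted p = 0.0683). The call of the merged Hba1 and Hba2 row was lost in 8 of the 9 fits that leave out 1 lung library, all but that without WT SuHx library 2. The calls of Klf1 and Bpgm were lost in 7, all but those without WT SuHx library 0 or 2. The call of the merged Hemgn and Trmo row was lost without normoxia library 1 (limma adjusted p = 0.0531), and that of Tspo2 without normoxia library 1, Ahr-KO library 0 or Ahr-KO library 2.

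**Figure D3:**
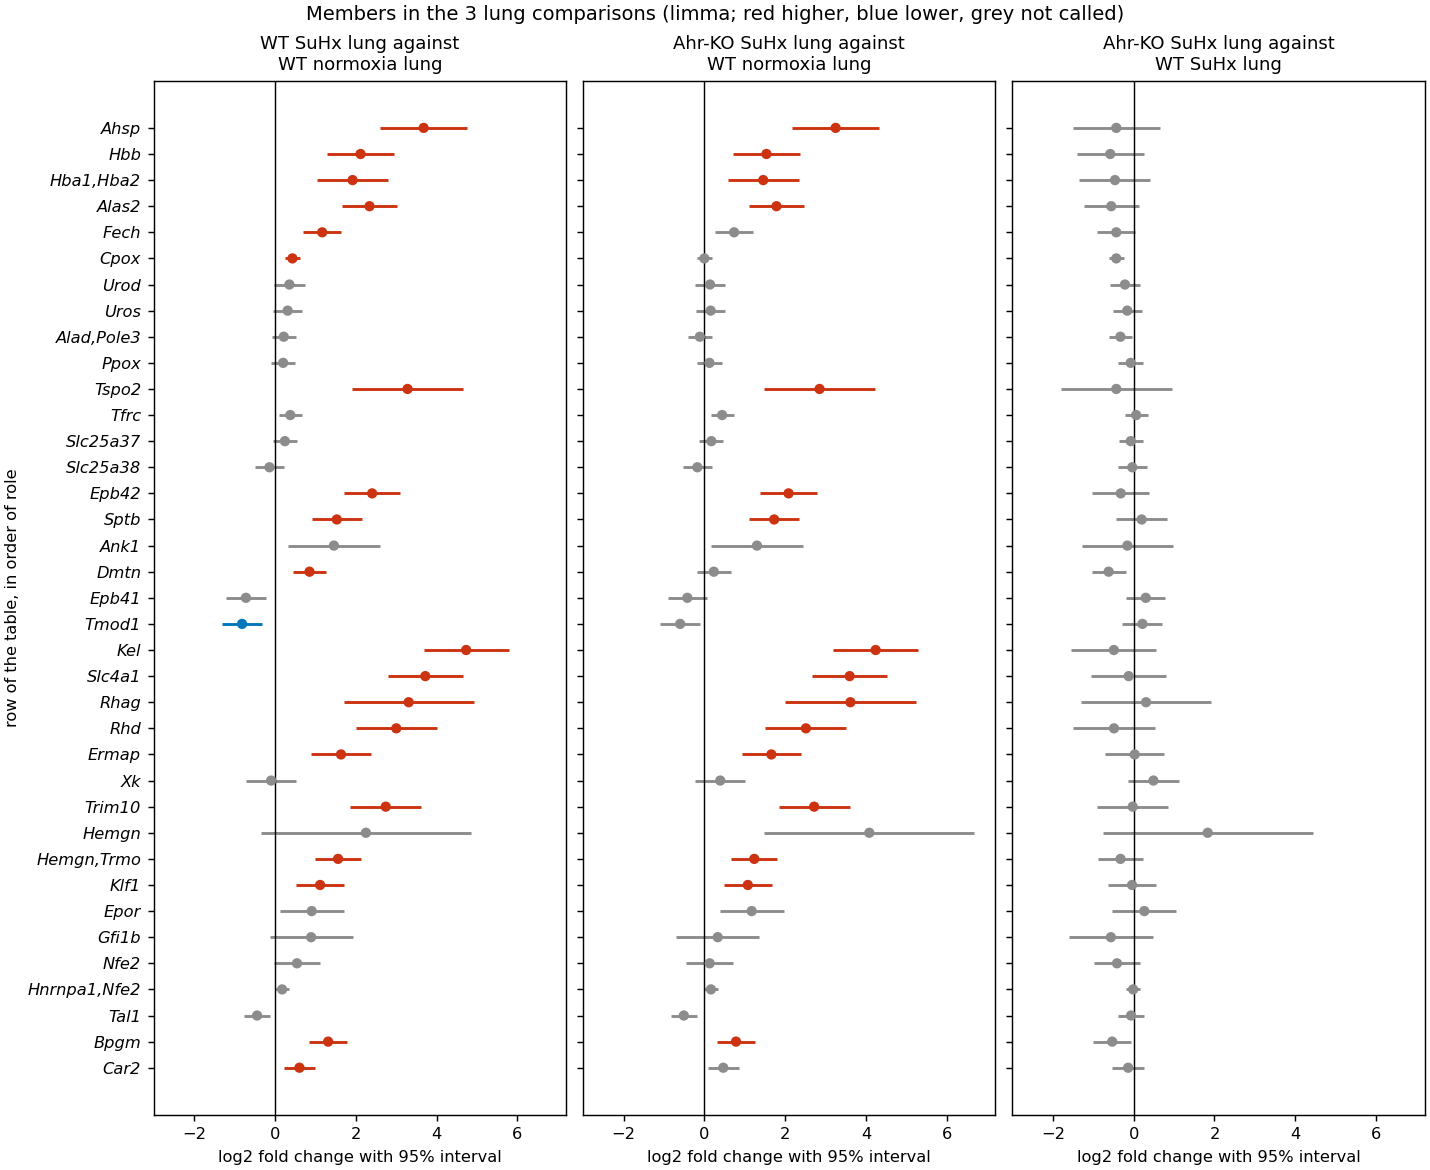
The log2 fold change of each tested row with its 95% interval in the 3 lung comparisons, ordered by role, with red for called higher, blue for called lower and grey for not called. No row is coloured in the comparison of Ahr-KO SuHx with WT SuHx, and several of its intervals are more than 1 log2 unit wide on either side.

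The comparison of Ahr-KO with WT lung, both on SuHx, asks whether the Ahr-KO label goes with another level of these genes. None of the 37 rows was called by limma, against a background of 0.197% higher and 0.302% lower (0.499% in either direction), and 4 had an unadjusted p under 0.05. The estimates were below 0 in 28 rows and above 0 in 9, with a median of -0.16 and a median over all tested rows of 0.02. Members tend to be high or low together in a library, so the rows are not separate observations. The intervals are wide. For Hbb the log2 change was -0.58 with a 95% interval of -1.41 to 0.25, for Kel -0.49 with -1.54 to 0.56, and for Slc4a1 -0.12 with -1.06 to 0.81. Alas2 stood at -0.55 with an interval of -1.24 to 0.13. These intervals do not show that the genotypes are alike. Heart markers differed between the same libraries: Myh6, the atrial myosin heavy chain, was at 1228, 673 and 4900.1 in Ahr-KO SuHx and listed at 0 in all 3 WT SuHx libraries. Myl7, an atrial myosin light chain, was at 741, 504 and 5559 in Ahr-KO and at 0, 0 and 0.745 in WT SuHx. These 2 were named after their values were seen, and the part of heart RNA in the differences of the members was not tested.

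The 4 rows with an unadjusted p under 0.05 were Cpox, Dmtn, Bpgm and the merged Alad and Pole3 row, all lower in Ahr-KO. Cpox was at 849, 824 and 880.2 in WT SuHx and at 639, 654 and 602 in Ahr-KO SuHx, where normoxia lung had 632, 620.5 and 639.6. The WT SuHx libraries stood above both other groups, with no overlap. The log2 difference of Ahr-KO from WT was -0.43 ± 0.09 (95% interval -0.62 to -0.24), and the limma adjusted p was 0.0745. It was called when all 12 libraries were fitted together (limma adjusted p = 0.0361). Dmtn was at 813, 713 and 913 in WT SuHx and at 609, 541 and 442 in Ahr-KO SuHx, also with no overlap, and its log2 difference of -0.62 had a limma adjusted p of 0.206. Cpox and Dmtn were the only 2 of the 37 rows in which these groups did not overlap, both with Ahr-KO lower, where the background was 10.2% lower and 11.7% higher. For Bpgm the log2 difference was -0.53 and for the Alad and Pole3 row -0.33.

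Not all members scaled together with globin. Dividing a library's signal by its Hbb signal gives a ratio that does not depend on the library's scaling factor. The rows for this description were chosen after their values were seen, and it carries no test. For Slc4a1 the signal per 1000 of Hbb was 2.70 to 5.97 in the normoxia libraries, 7.73 to 13.5 in WT SuHx and 11.5 to 19.2 in Ahr-KO SuHx. Kel per 1000 of Hbb was at 0.308 to 0.468 in normoxia, 1.97 to 2.72 in WT SuHx and 1.63 to 3.36 in Ahr-KO. Ahsp was at 1.08 to 2.58, 5.0 to 5.45 and 5.15 to 6.07 in the same order, and Rhd at 1.05 to 1.22, 1.96 to 2.28 and 1.48 to 2.80. In these 4 rows all 6 SuHx libraries lay above all 3 normoxia libraries.

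Other rows kept pace with Hbb or fell behind it. Alpha-globin, the merged Hba1 and Hba2 row, was at 981 to 1296 per 1000 of Hbb in normoxia, 898 to 1019 in WT SuHx and 961 to 1176 in Ahr-KO, so the ranges overlap. Alas2 was at 18.9 to 20.3, 20.8 to 24.6 and 22.9 to 23.7, the SuHx libraries being slightly above normoxia. Epb42 overlapped, at 0.770 to 1.16, 0.701 to 1.62 and 0.815 to 2.15. Fech was lower per Hbb, at 14.1 to 19.3 in normoxia against 7.70 to 10.1 and 8.36 to 10.6, and so was Bpgm, at 23.9 to 31.5 against 14.8 to 17.6 and 13.8 to 18.7. Both are also made outside red cells, and how much of their signal in lung comes from other cells was not tested.

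**Figure D4:**
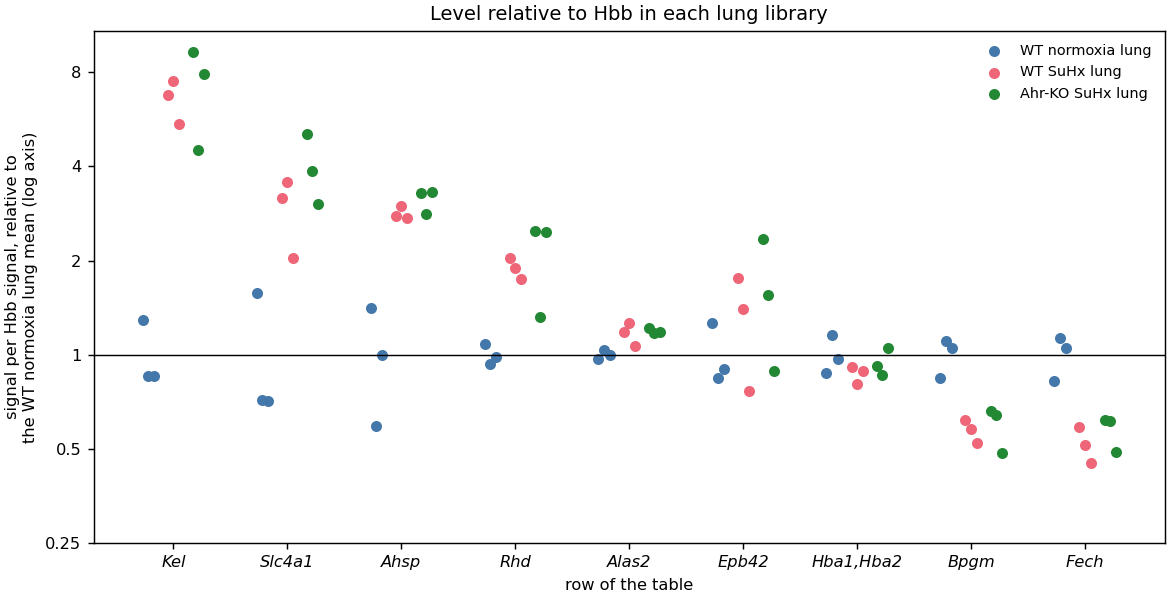
Signal per Hbb signal in each lung library, divided by the mean of the WT normoxia libraries, on a log axis; each point is 1 library, coloured by group. Kel, Slc4a1, Ahsp and Rhd lie above 1 in all 6 SuHx libraries, alpha-globin stays near 1, and Fech and Bpgm lie below 1.

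The ECs show how much of these genes' signal remains in isolated endothelium. Against normoxia lung, 18 of 36 tested rows were called lower and 6 higher, where the background over 15186 rows was 30.1% lower and 26.1% higher (56.2% in either direction). All 3 EC libraries lay below all 3 normoxia libraries in 19 rows and above in 6, where the background was 35.1% and 30.4%. The largest folds were those of red cell products. Alas2 was at 14.8, 15.7 and 9.98 in the ECs, 44.9-fold below normoxia lung (limma adjusted p = 1.67e-05). Hbb was at 886, 948 and 1007, 34.6-fold lower (limma adjusted p = 6.49e-06), and the merged Hba1 and Hba2 row was 37.2-fold lower (limma adjusted p = 6.59e-06). Globin rows took 0.00718% to 0.00818% of the EC signal. Rhd was at 1.14, 3.62 and 0 and Kel at 0, 0 and 2.5, all worth no more than 3 reads.

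Slc4a1 was at 5.69, 20.5 and 2.5 in the ECs, 14.6-fold below normoxia lung (limma adjusted p = 0.0039). That fold was 24.1 without EC library 1 and 9.71 without EC library 2. Ank1 was 11.9-fold lower, or 19.8-fold without normoxia library 1. Tmod1 was 6.48-fold and Klf1 5.44-fold lower. Ahsp did not follow its partner globins: it was at 39.8, 31.3 and 69.9 in the ECs and at 109.8, 29.8 and 54.4 in normoxia lung, a log2 difference of -0.34 ± 0.52 (95% interval -1.55 to 0.87). Per 1000 of Hbb, Ahsp was at 33.0 to 69.4 in the ECs and at 1.08 to 2.58 in normoxia lung. Ermap and Trim10 likewise had small differences, with log2 values of 0.14 and -0.06.

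The 6 rows higher in ECs were Tfrc, Slc25a37, Epb41, Tal1, Nfe2 and the merged Hnrnpa1 and Nfe2 row. Tal1 was at 2812, 3443 and 2524 in the ECs, 2.18-fold above normoxia lung (limma adjusted p = 0.00047). Nfe2 was at 283, 359 and 326, 2.35-fold higher (limma adjusted p = 0.00287), and the row it shares with Hnrnpa1, a splicing factor of all cells, was 2.25-fold higher. Epb41 was at 7621, 8895 and 7517 (1.90-fold, limma adjusted p = 0.00129) and Tfrc at 2195, 2104 and 1938 (1.88-fold, limma adjusted p = 0.00114). All of these rows had EC libraries above every normoxia lung library. Of the haem enzymes, 5 of 7 were called lower in ECs, while Cpox (-0.19) and Ppox (-0.10) were not called on the log2 scale. Of the 18 rows called lower, Sptb was 1.80-fold lower with overlapping groups (limma adjusted p = 0.0479). Its call was lost without either normoxia library 0 or normoxia library 2. So were those of Epb42 and Xk, also called lower, and that of Slc25a37, which was called higher. Apart from that of Xk, these calls were also lost without some EC libraries.

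Further erythroid genes from a second fixed list gave a mixed count: of 46 tested, 9 were called higher and 4 lower in WT SuHx lung. The background over all tested rows was 7.08% higher and 6.39% lower. Trim58, a ubiquitin ligase of terminal erythroid cells, was 5.56-fold higher (limma adjusted p = 0.0021) and the cell cycle phosphatase Cdc25b 1.86-fold (limma adjusted p = 0.000802). Many genes of this list are made widely, and its median log2 change was 0.07. In Ahr-KO SuHx lung, against the same normoxia libraries, 7 were called higher and 2 lower, where the background was 5.95% and 3.80%. Trim58 was 6.41-fold and Cdc25b 1.75-fold higher there.

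Of 4 further globin rows, 3 were called higher in WT SuHx: Hbq1b 5.48-fold, Hbb-b1 5.44-fold and Hba-a1 4.62-fold. Copies of globin genes are nearly identical, so how reads were split between them is uncertain. Among 19 other genes of haem synthesis and breakdown, 2 were called higher and 1 lower. These shares, 10.5% and 5.26%, were close to the background over all tested rows of 7.08% and 6.39%. Slc25a39, a mitochondrial carrier of glutathione, was 2.19-fold higher (limma adjusted p = 0.00838), and Hmox1, the haem oxygenase that breaks haem down, 2.01-fold (limma adjusted p = 0.0191). Flvcr2, a transporter also expressed in endothelium, was 1.88-fold lower (limma adjusted p = 0.00836). In Ahr-KO SuHx lung none of the 19 was called by limma against normoxia, 6 having an unadjusted p under 0.05, and Hmox1 had a log2 change of 0.34. The background in that comparison was 5.95% higher and 3.80% lower. Of 17 other iron genes, 0 were called higher and 1, Fam210b, lower in WT SuHx (5 had an unadjusted p under 0.05). The share called lower, 5.88%, was close to the background of 6.39%.

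Lists for other blood cells were counted beside these. Against normoxia, the background over all tested rows was 7.08% higher and 6.39% lower in WT SuHx, and 5.95% and 3.80% in Ahr-KO SuHx. A count of 1 row in 10 or 16 is close to that share. Of 16 megakaryocyte and platelet markers, 1 row, Gp1bb merged with Sept5, was called higher in WT SuHx (1.88-fold). Of 10 blood progenitor markers, 1, Prtn3, was called higher, at 3.83 to 4.26 in normoxia and 12.7 to 15.1 in WT SuHx. Of 10 neutrophil markers, 1 was called higher in WT SuHx and 4 in Ahr-KO SuHx, each against normoxia, and their summed signal was 2414 to 5251 in normoxia, 9319 to 13958 in WT SuHx and 9147 to 13687 in Ahr-KO SuHx. The called marker in WT SuHx was Lcn2, lipocalin 2, and without it the sums were 1057 to 3450.3 in normoxia, 2786 to 6495 in WT SuHx and 4361 to 6624 in Ahr-KO SuHx, so normoxia and WT SuHx overlap. No marker of this list was at 0 in any library, and its part in the erythroid rows was not tested. Among 10 mast cell markers, 5 estimates were above 0 and 5 below, and none was called higher. Gata2 and Kit, which are also genes of early blood cells, were called lower (2.09-fold and 2.05-fold). Both had more signal in the ECs than in normoxia lung. Gata2 was at 6969 to 9886 against 3205 to 3402, and Kit at 10152.5 to 13566 against 5147 to 5687. The other mast cell markers were not called. Of 20 cell cycle genes, 17 were called higher in WT SuHx and 18 in Ahr-KO SuHx. Of 18 genes induced by hypoxia, 5 were called higher and 1, Vegfa, lower in WT SuHx, with Eno1 1.59-fold and Ldha 1.61-fold higher, and 2 were called higher in Ahr-KO SuHx. Of the 10 endothelial markers, 2 were called lower in WT SuHx, Tek and Erg, and 2 in Ahr-KO SuHx. Of the 11 epithelial and fibroblast markers, 1, Col1a1, was called higher in both.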

How the data were processed

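RNA-seq of 12 rat libraries in 4 groups of 3 was used as 1 deposited table of scaled signal, in which the authors had divided estimated read numbers by 1 factor per library. The submitters' processing notes name rn6 and FastQC; aligner, counter and scaling: not given in the sources used here. Of the values, 79.4% to 81.2% per library were whole multiples of 1 read within 0.05, so they were tested as scaled values, not as counts. Columns name a group and a suffix from 0 to 2 but no single sample.

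With limma 3.58.1 (R 4.3.3), log2(signal + 1) was fitted for all rows with a mean signal of at least 1 (empirical Bayes with a trend, two-sided, Benjamini-Hochberg over all rows, called under 0.05). The 3 lung comparisons share 1 fit of 9 libraries, and the ECs were fitted with normoxia lung alone (6 libraries). The fit was tested on simulated data. All 37 members are described. Of each other list the counts are given and up to 4 called genes with the smallest adjusted p are named, or 2 by level where none was called. Some genes picked this way are not reported here. The members and lists were chosen with earlier results of these data known. Alternatives were other scalings, filters, pseudocounts, sets of fitted libraries, a replicate block and leaving out libraries.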

Additional observations from a re-analysis of the deposited data

How the results depend on the processing

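Under the alternatives run, no called member changed direction. In WT SuHx against normoxia lung, 15 of the 21 calls were kept in all 19 alternatives, and the count ranged from 17 to 22 when 1 library was left out. In Ahr-KO SuHx against normoxia lung, 8 of 16 calls were kept in all 19, the count was 11 to 18 with 1 library left out, and it was 8 when normoxia library 2 and Ahr-KO library 2 were left out together. That alternative also has fewer samples. In Ahr-KO against WT SuHx lung the count was 0 in every fit that left out 1 library and 1, Cpox, with all 12 libraries fitted, and the cause was not tested. In the ECs, 19 of 24 calls were kept in all 15, with a count of 20 to 27 when 1 library was left out. The main fits did not pair libraries by column suffix. Of 18 same-suffix pairs, 4 had a correlation of deviations over 0.1, the highest being 0.216 for library 2 of normoxia and Ahr-KO SuHx lung. The highest between different suffixes was 0.181, for WT SuHx library 1 and Ahr-KO library 0. Whether libraries of 1 suffix share a batch was not tested. With the suffix as a replicate block, the counts of members called were 23, 0, 19 and 25, against 21, 0, 16 and 24 in the main fits. Low rows such as Gata1, Rhag and Tspo2 are limited by depth.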
